A study of Mus musculus with 39 samples.

Results

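Plaque macrophage regions of mice given TRAF6i-HDL were compared with those of mice given mTORi-HDL, 2 drugs carried by the same kind of high-density lipoprotein (HDL) nanoparticle. The members were taken from the sample titles alone, 10 TRAF6i-HDL and 10 mTORi-HDL libraries of the 39 libraries in the series, with every gene kept in view. Saline-treated libraries, 10 in number and called PBS in the titles, served as the untreated group, although they were not uniform, as described below. All animals were female Apoe-/- mice (B6.129P2-Apoe<tm1Unc>), which lack apolipoprotein E from birth in every tissue and develop plaques on a high-cholesterol diet. They had eaten that diet for 12 weeks, entered treatment at 20 weeks of age, received 4 intravenous injections over 7 days and were killed 24 h after the last one. The protocol text lists CD40-HDL and rapamycin-HDL, each at 5 mg/kg, among its treatments and does not use the names in the titles. The carrier is common to both arms, while in a comparison with PBS the carrier and the drug cannot be told apart. Samples given empty nanoparticles were not analysed here.

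The material was cut by laser from CD68-rich plaque areas in 6 µm sections of the aortic root, so each library holds a small piece of tissue and not a sorted cell type. CD68 staining guided the capture, and the level of Cd68 is therefore no finding between arms. In bulk samples of this kind, fewer cells of a type and less RNA per cell cannot be told apart. The labels do not say which samples came from which mouse, so p-values measure the spread between these samples only.

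TRAF6 is an adaptor with ubiquitin ligase activity that binds the cytoplasmic tail of CD40 and also acts below interleukin-1 and Toll-like receptors, passing their signals to NF-kB and to MAP kinases. Rapamycin binds FKBP12, and the pair inhibits mTOR complex 1, a kinase complex that promotes ribosome production and protein synthesis and restrains autophagy and the formation of lysosomes through the TFEB and MITF family of transcription factors. Plaque macrophages take up modified lipoproteins through scavenger receptors, degrade them in lysosomes, become foam cells, divide in place and are replenished by monocytes that adhere to the endothelium.

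Library depth limits what can be seen. Assigned counts ran from 66602 to 3977229 per library with TRAF6i-HDL, with a median of 2048300, and from 1825755 to 4875794 with mTORi-HDL (two-sided permutation test, p = 0.0108, adjusted over 6 library measures 0.0647). The shallowest library of the 2 arms was TRAF6i-HDL replicate 7. It held so few reads that 1 read in it is worth 9.68 CPM (counts scaled to a common library size). Replicate 8 of that arm held 430805 counts. PBS replicate 9 held 50091 counts, at 12.6 CPM a read, and gave the lowest PBS value of several genes below. The 45S ribosomal RNA precursor Rn45s took 17.8% ± 8.31 of counts with TRAF6i-HDL and 23.1% ± 7.81 with mTORi-HDL (SD, n = 10 each; permutation test, adjusted p = 0.275). Apoe, the gene disrupted in these mice, had 0, 5.28 and 12.0 CPM in the lowest, median and highest TRAF6i-HDL library and 0.407, 2.86 and 8.22 CPM in mTORi-HDL (log2 fold change 0.96 ± 0.38, edgeR adjusted p = 0.164). The mTORi-HDL libraries stand in 2 places in the series, replicates 1 to 4 and replicates 5 to 10, and these 2 sets differed from each other in 35 genes (0.336% of those tested), 25 higher (0.24%) and 10 lower (0.0961%) in replicates 1 to 4. Values against each set are given beside the pooled value for many of the genes below, and a gene without them may not pass against 1 of the sets alone.

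**Figure D1:**
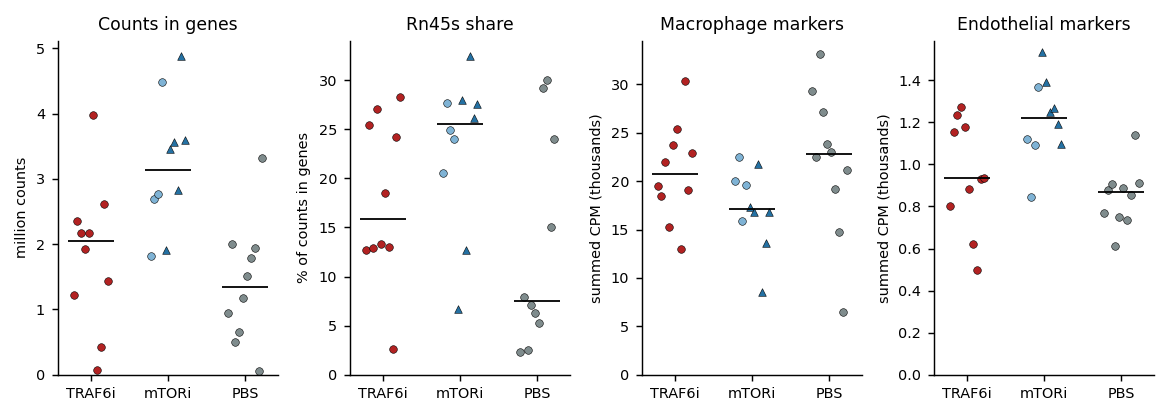
Assigned counts, the Rn45s share of counts, and the summed CPM of macrophage and endothelial markers, with 1 point per library for TRAF6i-HDL, mTORi-HDL and PBS and a bar at each median (mTORi-HDL replicates 1 to 4 as circles, 5 to 10 as triangles). The lowest count of the TRAF6i-HDL and mTORi-HDL libraries, 66602, belongs to TRAF6i-HDL replicate 7. PBS replicate 9 was lower still, at 50091.

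Of 10411 genes tested, 304 differed between TRAF6i-HDL and mTORi-HDL (2.92%), 162 higher (1.56%) and 142 lower (1.36%) with TRAF6i-HDL, at an adjusted p under 0.05 in edgeR's quasi-likelihood test. The median log2 fold change over all tested genes was 0.0016, and 103 of the called genes changed by at least 1 on the log2 scale, 62 higher and 41 lower. Scaled by DESeq2's size factors in place of TMM factors, the split was 188 higher and 102 lower. Against PBS, the same fit called 2 genes for TRAF6i-HDL (0.0192%), 1 higher (0.00961%) and 1 lower (0.00961%), and 171 for mTORi-HDL (1.64%), 65 higher (0.624%) and 106 lower (1.02%). These 2 comparisons share the PBS libraries, and their values are given gene by gene below. PBS was fitted as a single group, but its libraries were not alike. The complement gene C1qc read 644 to 895 CPM in PBS replicates 1 to 6 and 88.5 to 242 CPM in replicates 7 to 10. Sepp1 read 1594 to 4490 CPM and 455 to 1126 CPM in these sets. The Rn45s share was lower in all of replicates 1 to 6, while Ccl9 and Gpnmb overlapped between the sets. PBS medians and calls pool both sets, so a difference from PBS given below may hold for 1 of the sets only. The difference between the sets was not tested.

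All 304 genes had the same direction against both sets of mTORi-HDL libraries. They were called against the pool of these sets, so the shared direction is largely set by that choice and is no replication. At the same threshold 112 genes were called against replicates 1 to 4 (1.08%), 47 higher (0.451%) and 65 lower (0.624%), and 67 of them were among the 304. Against replicates 5 to 10 it was 320 genes (3.07%), 181 higher (1.74%) and 139 lower (1.34%), and 206 of them were among the 304. In all, 34 genes were called in the pooled comparison and against each set, and those 34 also kept their call whichever of the 20 libraries was left out. Over all 304 genes, 131 kept their call in every one of those 20 refits. In 10 genes (0.0961%) the 2 arms' CPM ranges did not overlap at all. Acp5, Adam33, Cd5l, Rnf44, Sepp1 and Tcn2 were higher in all TRAF6i-HDL libraries (0.0576%), and Atp2c1, Ccl9, Malt1 and Vprbp were lower in all of them (0.0384%). Of these, the call of Rnf44 held in 1 of the 20 refits.

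**Figure D2:**
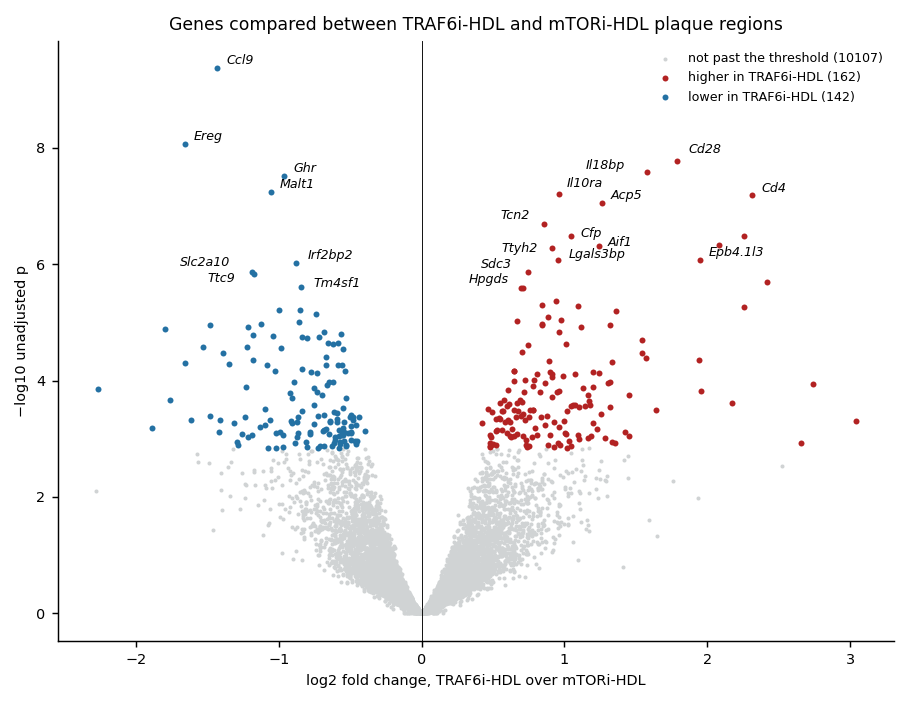
Log2 fold change, TRAF6i-HDL over mTORi-HDL, on the horizontal axis and -log10 of the unadjusted p on the vertical axis for 10411 genes, with the 304 called genes coloured. The smallest p on the lower side belongs to Ccl9 and those on the higher side include Cd28, Il18bp and Cd4.

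Where 3 values follow a group's name, they are its lowest, median and highest library in CPM on TMM-scaled library sizes, errors of log2 fold changes are standard errors, and each adjusted p is edgeR's over all 10411 genes. Genes given with a call kept it in all 20 left-out refits unless a loss is stated. Counts of called list members are to be read beside the called share of all tested genes. That share was 2.92% in the pooled comparison, 1.08% against mTORi-HDL replicates 1 to 4 and 3.07% against replicates 5 to 10.

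The smallest p of all belonged to Ccl9, a CC chemokine of mouse myeloid cells that signals through CCR1. It read 44.0, 79.4 and 109 CPM with TRAF6i-HDL, against 151, 236 and 301 CPM with mTORi-HDL, a log2 fold change of -1.43 ± 0.19 (adjusted p = 4.39e-06). Every TRAF6i-HDL library lay below every mTORi-HDL library, and the fold change was -1.55 against replicates 1 to 4 and -1.34 against replicates 5 to 10. PBS libraries read 62.0, 103 and 203 CPM, with a median between those of the 2 arms, and Ccl9 was called for mTORi-HDL over PBS (0.96 ± 0.18, adjusted p = 0.00342) and not for TRAF6i-HDL over PBS (-0.47 ± 0.19, adjusted p = 0.329).

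Ereg, which encodes the EGF receptor ligand epiregulin, had 4.15, 9.87 and 13.9 CPM with TRAF6i-HDL and 11.7, 29.8 and 55.0 CPM with mTORi-HDL (-1.66 ± 0.25, adjusted p = 4.37e-05), and 9 of 10 TRAF6i-HDL libraries were below the lowest mTORi-HDL library. The growth hormone receptor gene Ghr had 41.0, 58.0 and 87.1 CPM with TRAF6i-HDL and 75.8, 115 and 139.9 CPM with mTORi-HDL (-0.96 ± 0.15, adjusted p = 6.24e-05), with 8 TRAF6i-HDL libraries below all others. Both genes were low throughout the TRAF6i-HDL arm, not in a few libraries. Malt1, the paracaspase that carries antigen receptor signals to NF-kB, read 0, 30.1 and 40.9 CPM with TRAF6i-HDL and 44.4, 59.8 and 96.4 CPM with mTORi-HDL (-1.05 ± 0.17, adjusted p = 8.52e-05). Its ranges did not meet, and the 0 came from the shallow TRAF6i-HDL replicate 7, without which the next lowest library still read 16.6 CPM.

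Atp2c1, the Golgi calcium and manganese pump, had 34.2, 55.7 and 62.4 CPM with TRAF6i-HDL and 65.5, 76.3 and 99.2 CPM with mTORi-HDL, with no overlap (-0.56 ± 0.12, adjusted p = 0.00337). The bone morphogenetic protein gene Bmp6 read 0, 20.3 and 28.2 CPM with TRAF6i-HDL, 22.1, 43.0 and 50.1 CPM with mTORi-HDL and 8.65, 13.8 and 32.7 CPM in PBS, so that mTORi-HDL was above both other groups (-1.12 ± 0.23 for TRAF6i-HDL over mTORi-HDL, adjusted p = 0.00276; mTORi-HDL over PBS 1.25 ± 0.24, adjusted p = 0.00313). Pim1, a serine/threonine kinase induced by cytokine receptors, had 0, 6.97 and 16.6 CPM with TRAF6i-HDL and 15.1, 18.7 and 27.3 CPM with mTORi-HDL (-1.22 ± 0.25, adjusted p = 0.00284). Its 0 again belonged to TRAF6i-HDL replicate 7. The IRF2 co-repressor gene Irf2bp2 was also lower (-0.88 ± 0.16, adjusted p = 0.000546), but not evenly over the arm. It read 131 to 178 CPM in TRAF6i-HDL replicates 1 to 6 and 232 to 374 CPM in replicates 7 to 10. The mTORi-HDL libraries read 326 to 501 CPM, so the second of these sets overlapped them. The difference between these TRAF6i-HDL sets was not tested.

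On the higher side, the smallest p belonged to Cd28, which encodes the costimulatory receptor of T cells that binds CD80 and CD86. It had 0, 23.7 and 33.7 CPM with TRAF6i-HDL and 1.73, 7.15 and 11.1 CPM with mTORi-HDL (1.79 ± 0.27, adjusted p = 5.73e-05). Of the 10 TRAF6i-HDL libraries, 9 were above every mTORi-HDL library, and the other one was the shallow replicate 7, at 0. PBS libraries had a median of 22.7 CPM, with -0.24 ± 0.26 for TRAF6i-HDL over PBS (adjusted p = 0.779) and -2.03 ± 0.27 for mTORi-HDL over PBS (adjusted p = 8.40e-06). PBS replicates 1 to 6 read 20.6 to 59.1 CPM and replicates 7 to 10 read 0 to 19.6 CPM. Cd4, the MHC class II coreceptor of helper T cells, read 19.4, 43.3 and 63.4 CPM with TRAF6i-HDL, 1.82, 7.23 and 20.9 CPM with mTORi-HDL and 0, 20.8 and 46.2 CPM in PBS (2.31 ± 0.35 for TRAF6i-HDL over mTORi-HDL, adjusted p = 8.52e-05). Here too 9 TRAF6i-HDL libraries were above all mTORi-HDL libraries. Of the 9 tested T cell costimulation genes, Cd28 and Cd4 were called (22.2%, beside 2.92% of all genes), and the median was 0.05.

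Other T cell genes were low in both arms. Cd3e had 0, 10.4 and 22.9 CPM with TRAF6i-HDL and 1.46, 5.16 and 20.7 CPM with mTORi-HDL, Cd3d had a median of 0.404 CPM with TRAF6i-HDL and 0.230 CPM with mTORi-HDL, and Zap70 had a median of 0 in both. The summed T and natural killer cell markers ran from 13.2 to 67.3 CPM with TRAF6i-HDL (median 40.3) and from 10.9 to 61.4 CPM with mTORi-HDL (median 21.1), and none of the 3 tested passed, although all 3 were positive, with a median log2 fold change of 0.91. Whether T cells have a part in the Cd4 and Cd28 difference was not tested.

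Il18bp, the secreted antagonist of interleukin-18, had 79.1, 125 and 181 CPM with TRAF6i-HDL and 20.3, 48.1 and 79.2 CPM with mTORi-HDL (1.57 ± 0.23, adjusted p = 6.24e-05). Only TRAF6i-HDL replicate 8, the lowest of its arm, was not above every mTORi-HDL library. Il10ra, the ligand-binding chain of the interleukin-10 receptor, had 29.0, 46.6 and 62.3 CPM with TRAF6i-HDL and 16.5, 23.4 and 41.8 CPM with mTORi-HDL (0.96 ± 0.15, adjusted p = 8.52e-05), with 8 libraries above. Its fold change was 0.79 against mTORi-HDL replicates 1 to 4 and 1.09 against replicates 5 to 10.

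**Figure D3:**
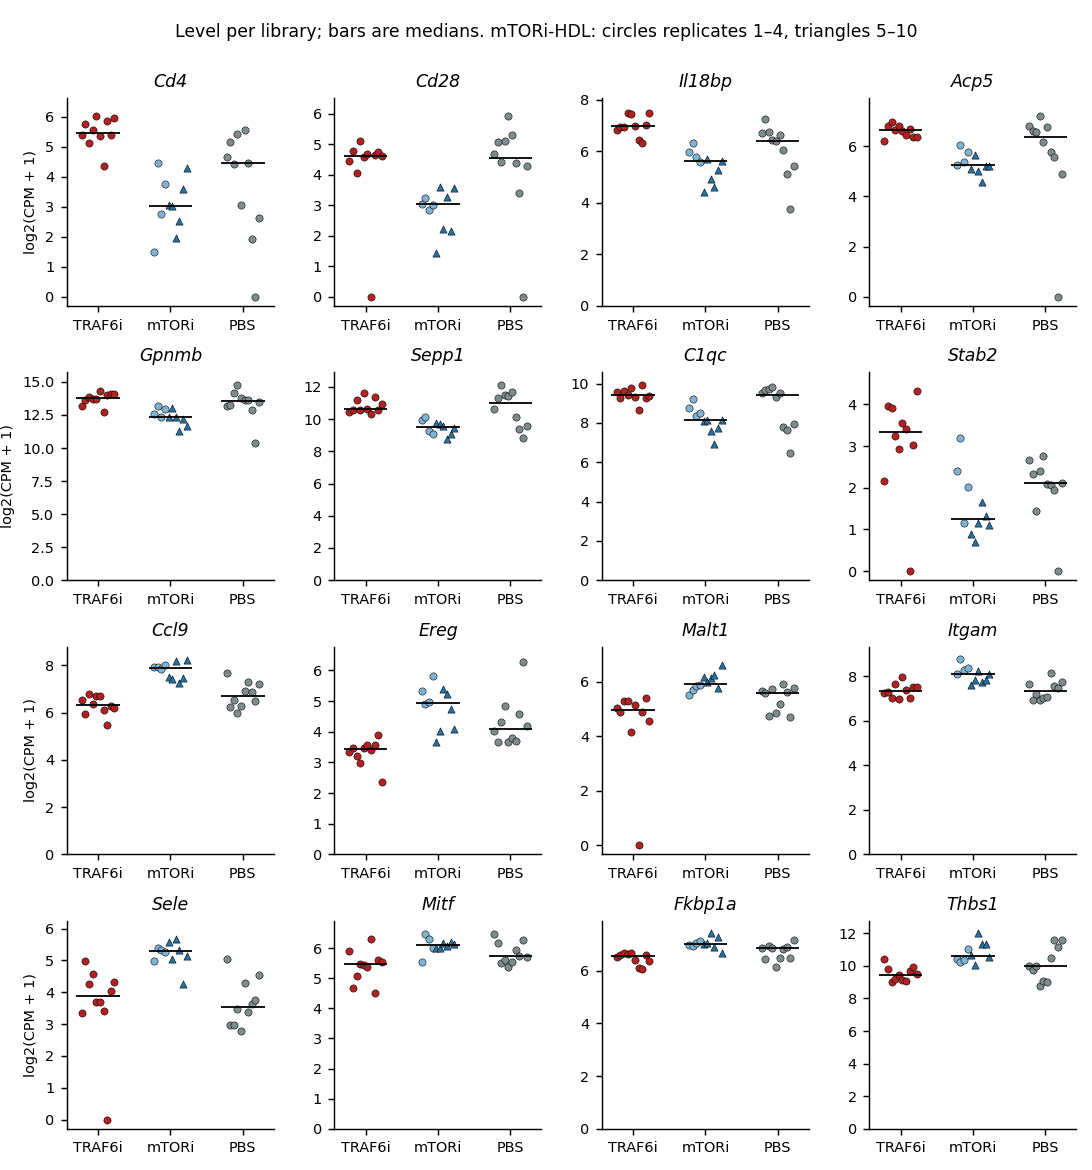
Log2(CPM + 1) of 16 called genes in each TRAF6i-HDL, mTORi-HDL and PBS library, with a bar at each group's median (mTORi-HDL replicates 1 to 4 as circles, 5 to 10 as triangles). Acp5, Ccl9, Malt1 and Sepp1 show no overlap between the first 2 groups. The single low TRAF6i-HDL points of Cd28 and Malt1 are replicate 7, and PBS replicate 9 also had no read of Cd28.

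Of 25 foam cell genes tested, 4 were higher with TRAF6i-HDL (Acp5, Gpnmb, Pld3 and Cd5l) and none was lower. Called members made up 16%, beside 2.92% of all genes, 20 of the 25 had a positive log2 fold change, and the median was 0.40. Acp5, the tartrate-resistant acid phosphatase of osteoclasts and lipid-laden macrophages, had 72.9, 97.8 and 123 CPM with TRAF6i-HDL, 23.0, 36.6 and 64.3 CPM with mTORi-HDL and 0, 81.7 and 144 CPM in PBS. All 10 TRAF6i-HDL libraries were above all mTORi-HDL libraries (1.26 ± 0.20, adjusted p = 0.000102), and mTORi-HDL was below the pooled PBS libraries (-0.97 ± 0.20, adjusted p = 0.00704). PBS replicates 1 to 6 read 70.8 to 144 CPM, above the mTORi-HDL range. PBS replicates 7 to 10 read 0 to 53.2 CPM, inside or below that range. Gpnmb, a transmembrane glycoprotein of lysosome-rich macrophages, had 6851, 14327 and 20573 CPM with TRAF6i-HDL and 2533, 5289.9 and 9102 CPM with mTORi-HDL (1.32 ± 0.27, adjusted p = 0.00276). In 9 TRAF6i-HDL libraries it exceeded the highest mTORi-HDL library. The difference was 1.01 ± 0.37 against mTORi-HDL replicates 1 to 4 (adjusted p = 0.225) and 1.57 ± 0.32 against replicates 5 to 10 (adjusted p = 0.00203). The PBS median of Gpnmb was 12055 CPM, and mTORi-HDL over PBS was -1.13 ± 0.27 (adjusted p = 0.0180).

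Cd5l and Sepp1 separated the arms fully. Cd5l, a scavenger receptor family protein secreted by tissue macrophages, had 600.0, 1116 and 2216 CPM with TRAF6i-HDL, 287 to 516 CPM in mTORi-HDL replicates 1 to 4 and 11.7 to 73.2 CPM in replicates 5 to 10 (pooled 2.74 ± 0.63, adjusted p = 0.0115). The 2 mTORi-HDL sets themselves differed (adjusted p = 0.0149), and TRAF6i-HDL was 1.60 ± 0.66 over replicates 1 to 4 (adjusted p = 0.339) and 5.03 ± 0.68 over replicates 5 to 10 (adjusted p = 2.17e-05). Sepp1, the selenium carrier selenoprotein P, had 1306, 1568 and 3186 CPM with TRAF6i-HDL, 436, 744 and 1130.2 CPM with mTORi-HDL and 455, 2094 and 4490.2 CPM in PBS (1.36 ± 0.27 for TRAF6i-HDL over mTORi-HDL, adjusted p = 0.00207). Of 15 genes of resident-like macrophages tested, Sepp1 and Gas6 were the 2 higher (13.3%, beside 2.92% of all genes), with a median of 0.31. Pld3, an endolysosomal exonuclease of the phospholipase D family, was higher by less (0.73 ± 0.17, adjusted p = 0.0108). Without TRAF6i-HDL replicate 7 the count of higher foam cell genes was 7. Against mTORi-HDL replicates 1 to 4, 1 was higher and 1 was lower, and against replicates 5 to 10, 8 were higher and 0 were lower.

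Of 26 tested receptors and opsonins for the uptake of dying cells and lipoproteins, 6 were higher (Stab2, C1qc, C1qb, C1qa, Stab1 and Gas6) and none was lower. Called members made up 23.1%, beside 2.92% of all genes, 16 of the 26 had a positive log2 fold change, and the median was 0.10. Stab2, an endocytic receptor for hyaluronan and apoptotic cells, had 0, 9.05 and 19.1 CPM with TRAF6i-HDL and 0.617, 1.37 and 8.09 CPM with mTORi-HDL (2.08 ± 0.37, adjusted p = 0.000362). In 6 TRAF6i-HDL libraries it was above all mTORi-HDL libraries, replicate 8 was at 0, and the median mTORi-HDL library held only a few reads. The Stab2 difference was 1.26 ± 0.44 against mTORi-HDL replicates 1 to 4 (adjusted p = 0.187) and 2.93 ± 0.43 against replicates 5 to 10 (adjusted p = 1.50e-05). Its relative Stab1 had 41.8, 113 and 202 CPM with TRAF6i-HDL, 49.7, 77.1 and 96.7 CPM with mTORi-HDL and 25.3, 57.4 and 80.8 CPM in PBS (0.70 ± 0.18, adjusted p = 0.0189), and its call against mTORi-HDL ended without TRAF6i-HDL replicate 4 (0.59, adjusted p = 0.0621). Stab1 was 1 of the 2 genes called for TRAF6i-HDL over PBS (1.12 ± 0.19, adjusted p = 0.00238). The bridging ligand gene Gas6 lost its call in 6 of 20 refits (0.70 ± 0.18, adjusted p = 0.0255).

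The 3 chains of complement C1q, the opening component of the classical pathway, were all higher. C1qc had 406, 673 and 956 CPM with TRAF6i-HDL and 121, 281 and 592 CPM with mTORi-HDL (1.20 ± 0.27, adjusted p = 0.00861), and C1qb had 571, 1135 and 1485 CPM with TRAF6i-HDL and 329.5, 549.7 and 963 CPM with mTORi-HDL (0.99 ± 0.23, adjusted p = 0.00942). In each, 9 of 10 TRAF6i-HDL libraries were above every mTORi-HDL library. C1qa gave 1.32 ± 0.30 (adjusted p = 0.0112). The C1qc difference was 0.72 ± 0.34 against mTORi-HDL replicates 1 to 4 (adjusted p = 0.412) and 1.63 ± 0.30 against replicates 5 to 10 (adjusted p = 0.000821), and the scavenger list as a whole had 0 calls against the first set and 6 against the second. Cfp, encoding properdin, which stabilises the alternative pathway convertase, had 19.4, 65.6 and 90.9 CPM with TRAF6i-HDL and 21.6, 30.7 and 46.9 CPM with mTORi-HDL (1.05 ± 0.18, adjusted p = 0.000282). Of 16 complement genes tested, those 4 were higher and 1, the integrin chain gene Itgam of complement receptor 3, was lower. Called members made up 31.25%, beside 2.92% of all genes, and the median was 0.01.

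Genes for Fc receptors and their signalling gave 3 higher of 16 tested (18.75%, beside 2.92% of all genes), none lower and a median of 0.10. Fcgr4, an activating receptor for immunoglobulin G, had 9.68, 52.6 and 83.5 CPM with TRAF6i-HDL and 9.78, 25.7 and 43.5 CPM with mTORi-HDL (1.11 ± 0.23, adjusted p = 0.00284), with 6 TRAF6i-HDL libraries above all others. Fcer1g (0.73 ± 0.21) and the signalling gene Inpp5d (0.48 ± 0.14), also called higher, lost their calls in 15 and 13 of the 20 refits. In 11 refits the count of higher genes was 1. Fcgr4 gave 0.75 ± 0.29 against mTORi-HDL replicates 1 to 4 (adjusted p = 0.272) and 1.401 ± 0.26 against replicates 5 to 10 (adjusted p = 0.000551).

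Of 19 macrophage markers tested, 4 were called (21.1%, beside 2.92% of all genes), all higher (Aif1, Cd68, Laptm5 and Fcer1g). The list's median was 0.28. CD68 staining guided the capture, and Laptm5 and Fcer1g lost their calls in 13 and 15 of the 20 refits, so that in 11 refits the count was 2. Against mTORi-HDL replicates 1 to 4 none was called (median 0.12), and against replicates 5 to 10 it was 3 (median 0.40). Aif1, the actin-binding protein known as Iba1, had 9.68, 40.1 and 65.9 CPM with TRAF6i-HDL and 10.4, 15.9 and 29.2 CPM with mTORi-HDL (1.24 ± 0.22, adjusted p = 0.000362). Summed over the list, macrophage markers ran from 12987 to 30368 CPM with TRAF6i-HDL (median 20767) and from 8527 to 22541 CPM with mTORi-HDL (median 17111), beside a PBS median of 22779 CPM. The part of macrophage content in the differences of the foam cell, scavenger and complement genes was not tested.

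Of 57 lysosomal genes tested, 48 had a positive log2 fold change and the median was 0.28, beside 0.0016 over all genes. With TRAF6i-HDL 8 were called higher and 1 lower (15.8%, beside 2.92% of all genes). The higher ones were mostly enzymes that take glycans apart. Galns, a sulfatase for keratan and chondroitin sulfate, had 48.4, 74.6 and 104 CPM with TRAF6i-HDL, 38.5, 48.9 and 55.0 CPM with mTORi-HDL and 50.6, 73.9 and 111 CPM in PBS, with 8 TRAF6i-HDL libraries above all mTORi-HDL libraries (0.69 ± 0.13, adjusted p = 0.00107). It was lower with mTORi-HDL than in PBS (-0.73 ± 0.13, adjusted p = 0.00250), while TRAF6i-HDL over PBS was -0.033 ± 0.14 (adjusted p = 0.972). Glb1, lysosomal beta-galactosidase, had 19.4, 40.1 and 63.9 CPM with TRAF6i-HDL and 15.6, 21.9 and 35.8 CPM with mTORi-HDL (0.84 ± 0.17, adjusted p = 0.00190). Hpse, the endoglycosidase heparanase, had 14.1, 29.95 and 39.6 CPM with TRAF6i-HDL and 6.50, 16.1 and 27.5 CPM with mTORi-HDL (0.91 ± 0.21, adjusted p = 0.00897). For Glb1 and Hpse, 7 and 6 TRAF6i-HDL libraries were above the whole mTORi-HDL range.

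Gusb, beta-glucuronidase, had 116, 229 and 289 CPM with TRAF6i-HDL and 65.0, 146 and 189 CPM with mTORi-HDL (0.67 ± 0.17, adjusted p = 0.0194), and the 2 arms overlapped. Other calls on the higher side were less firm. The cathepsin gene Ctsh lost its call without TRAF6i-HDL replicate 3 or 5, the hexosaminidase gene Hexa in 3 of 20 refits and the glucosaminidase gene Naglu in 10. The lower member was Mitf, a transcription factor of the family that binds lysosomal gene promoters, at 22.0, 42.9 and 77.4 CPM with TRAF6i-HDL and 45.6, 67.5 and 88.2 CPM with mTORi-HDL (-0.72 ± 0.15, adjusted p = 0.00359). The lysosomal count of higher genes was 6 to 10 with a library left out, 13 without the libraries under 200000 counts (TRAF6i-HDL replicate 7 and 1 each of PBS and S6K1i-HDL) and 14 with the Rn45s share as a covariate. Against mTORi-HDL replicates 1 to 4, 1 lysosomal gene was higher and 2 were lower, and against replicates 5 to 10, 8 were higher and 1 was lower.

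**Figure D4:**
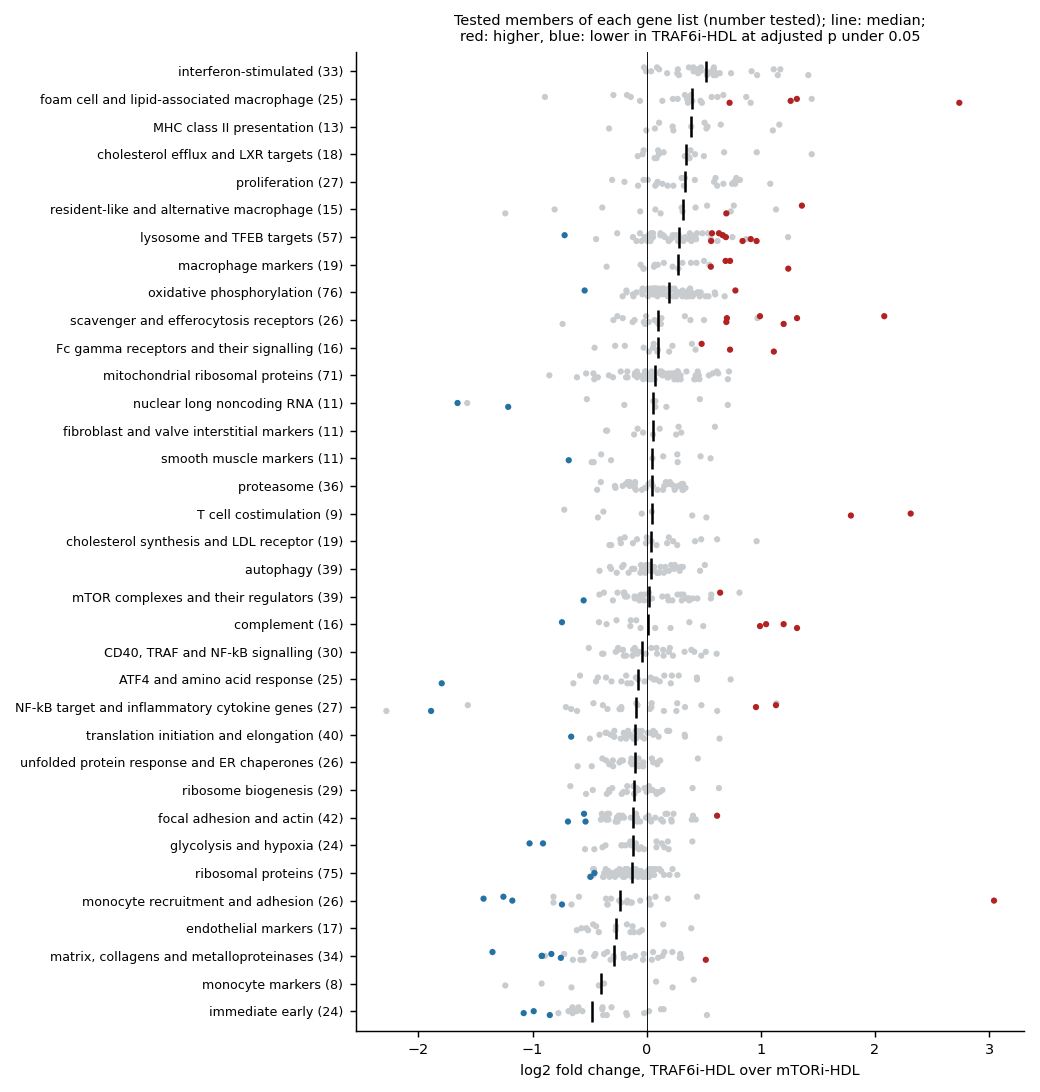
Log2 fold change, TRAF6i-HDL over mTORi-HDL, of each tested member of the gene lists with at least 8 tested members, with called members coloured and a bar at each list's median. The lysosomal list has its median at 0.28 and the immediate early list at -0.48.

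The TFEB and MITF family binds the E-box CACGTG, and in lysosomal promoters often the longer form TCACGTGA. Promoter windows of 250 bases before to 50 after the annotated start (RefSeq, GRCm38.p6) were matched for 8342 of the 10411 tested genes and searched on both strands. CACGTG was present in 12.06% of them (1006 promoters), in 32.61% of the 46 matched lysosomal promoters, in 9.6% of the 125 matched higher genes and in 12.17% of the 115 matched lower genes. TCACGTGA, which contains CACGTG, was in 2.338% of all promoters and in 6 lysosomal ones. Of the 6 matched lysosomal genes that were called, 2 had the E-box, Glb1 and Naglu, both higher. Among the 115 matched lower genes 14 carry the same letters, Bmp6 being 1 of them. Egr2 and Pim1 are shown as examples of these, with the opposite direction of change. A match is a description of these letters and not of a bound site. The windows are on the plus strand at chr9:114401005-114401060 for Glb1, chr11:101069996-101070051 for Naglu, chr10:67535447-67535502 for Egr2 and chr17:29493002-29493057 for Pim1, with CACGTG in capitals.
Glb1: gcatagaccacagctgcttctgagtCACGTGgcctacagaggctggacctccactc
Naglu: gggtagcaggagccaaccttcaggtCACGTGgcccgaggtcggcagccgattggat
Egr2: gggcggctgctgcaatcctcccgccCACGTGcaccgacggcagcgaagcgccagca
Pim1: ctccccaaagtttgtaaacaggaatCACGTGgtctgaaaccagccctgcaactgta

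Of 39 genes of the mTOR complexes, their regulators and S6 kinases, 1 was higher and 1 was lower (5.13%, beside 2.92% of all genes), with a median of 0.02. Mtor itself read 19.4, 33.5 and 55.0 CPM with TRAF6i-HDL and 21.9, 37.95 and 51.6 CPM with mTORi-HDL (-0.10 ± 0.19, adjusted p = 0.845), and its sign depended on the setting. Rps6kb1, encoding S6 kinase 1, read 50.6, 60.9 and 103 CPM with TRAF6i-HDL and 38.8, 52.8 and 97.3 CPM with mTORi-HDL (0.27 ± 0.15, adjusted p = 0.364). The 2 arms overlapped for both genes.

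The lower member was Fkbp1a, which encodes FKBP12, the protein that rapamycin binds. It had 66.0, 92.6 and 100.4 CPM with TRAF6i-HDL, 99.6, 129.6 and 173 CPM with mTORi-HDL and 70.0, 114 and 143 CPM in PBS (-0.55 ± 0.12 for TRAF6i-HDL over mTORi-HDL, adjusted p = 0.00466). In 8 TRAF6i-HDL libraries it lay below the whole mTORi-HDL range. The higher member was Sesn1, a sestrin that restrains mTOR complex 1, with 24.4, 32.9 and 50.6 CPM with TRAF6i-HDL and 16, 20.1 and 29.0 CPM with mTORi-HDL (0.64 ± 0.15, adjusted p = 0.00851). Fkbp1a and the ribosomal protein genes below have processed pseudogenes, and reads aligned to several places were left out by the authors' counting, so their levels are uncertain to that extent.

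Among lists of processes that mTOR complex 1 controls, the lysosomal list above had 15.8% called. Those for autophagy, translation, ribosomes, the unfolded protein response, the proteasome and cholesterol synthesis had shares near or under the 2.92% of all genes. None of 39 autophagy genes (median 0.04), 29 ribosome biogenesis genes (-0.11), 26 unfolded protein response genes (-0.11), 36 proteasome genes (0.05) and 19 cholesterol synthesis genes (0.04) passed. Of 40 translation genes 1 did, the elongation factor subunit gene Eef1b2, with 116, 154 and 220.0 CPM for TRAF6i-HDL and 125, 239.6 and 399 CPM for mTORi-HDL (-0.66 ± 0.16, adjusted p = 0.0118). It gave -0.98 ± 0.19 against mTORi-HDL replicates 1 to 4 (adjusted p = 0.00257) and -0.40 ± 0.17 against replicates 5 to 10 (adjusted p = 0.210). Among 75 ribosomal protein genes, 58 had a negative log2 fold change, the median was -0.13 and 2 were lower, Rps6 (-0.49 ± 0.14, adjusted p = 0.0360) and Rps3a1 (-0.46 ± 0.13, adjusted p = 0.0464), which lost their calls in 7 and 14 refits. That list had 5 calls against mTORi-HDL replicates 1 to 4 and 0 against replicates 5 to 10.

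The amino acid response list had 1 call in 25, the cystine transporter gene Slc7a11, which supplies cystine for glutathione. Slc7a11 read 2.102, 10.8 and 31.5 CPM with TRAF6i-HDL and 11.1, 42.5 and 88.2 CPM with mTORi-HDL (-1.80 ± 0.36, adjusted p = 0.00303). The difference was -1.19 ± 0.42 against mTORi-HDL replicates 1 to 4 (adjusted p = 0.213) and -2.09 ± 0.37 against replicates 5 to 10 (adjusted p = 0.000554). Of 24 glycolysis and hypoxia genes, 2 were lower, the angiogenic growth factor gene Vegfa (-1.03 ± 0.24, adjusted p = 0.00861) and Hilpda (-0.91 ± 0.23, adjusted p = 0.0167), whose protein sits on lipid droplets. Vegfa gave -0.57 ± 0.29 against mTORi-HDL replicates 1 to 4 (adjusted p = 0.474) and -1.26 ± 0.25 against replicates 5 to 10 (adjusted p = 0.00135). Hilpda had 10.5, 16.3 and 30.8 CPM with TRAF6i-HDL and 20.9, 32.8 and 40.2 CPM with mTORi-HDL, with 7 TRAF6i-HDL libraries below all others. None of 18 cholesterol efflux and LXR target genes passed, although their median was 0.35.

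Of 30 genes on the route to NF-kB, those for CD40, TRAF proteins, kinases, NF-kB subunits and their inhibitors, 0 passed in either direction in edgeR, and 3 had an unadjusted p under 0.05. With 2.92% of all genes called, 0 of 30 is near the background. The median was -0.04, and at most 1 gene passed in any left-out refit. Traf6 read 6.59, 30.3 and 38.7 CPM with TRAF6i-HDL and 20.4, 37.1 and 42.8 CPM with mTORi-HDL (-0.27 ± 0.16, adjusted p = 0.398). Cd40 read 0, 1.88 and 7.06 CPM with TRAF6i-HDL and 0.972, 3.83 and 7.35 CPM with mTORi-HDL (-0.38 ± 0.41, adjusted p = 0.704), a level of a few reads in most libraries at which a moderate difference was not detectable.

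Of 27 inflammatory NF-kB target genes tested, 2 were higher and 1 was lower (11.1%, beside 2.92% of all genes), and the median was -0.09. Against mTORi-HDL replicates 1 to 4, 0 were higher and 3 were lower (median -0.35), and against replicates 5 to 10, 2 were higher and 0 were lower (median 0.01). Ccl3, a chemokine that signals through CCR1, had 21.9, 38.6 and 79.1 CPM with TRAF6i-HDL and 6.06, 16.7 and 31.6 CPM with mTORi-HDL (1.13 ± 0.27, adjusted p = 0.0127), and 6 TRAF6i-HDL libraries were above all mTORi-HDL libraries. It differed by 0.56 ± 0.32 from mTORi-HDL replicates 1 to 4 (adjusted p = 0.528) and by 1.65 ± 0.29 from replicates 5 to 10 (adjusted p = 0.000320). The cytokine gene Il1a gave 0.96 ± 0.28 (adjusted p = 0.0450) and lost its call in 13 refits. Cxcl2, a chemoattractant for neutrophils, had 2.102, 5.61 and 24.2 CPM with TRAF6i-HDL and 6.06, 20.6 and 44.0 CPM with mTORi-HDL (-1.89 ± 0.51, adjusted p = 0.0326), and lost its call without TRAF6i-HDL replicate 1, 2, 4, 5 or 6 or mTORi-HDL replicate 4 or 7. Il1b (-1.57 ± 0.49, adjusted p = 0.0707) and Il6 (-2.28 ± 0.81, adjusted p = 0.122) were not called.

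The kappaB letters GGAATTTCC, read on either strand, were found in 0.5155% of the 8342 promoters, 43 in all, and in 6 of the 21 matched promoters of the NF-kB target list. Cxcl2 was the only one of the 3 called targets to have them. Ier3, an immediate early gene described below, had them too, and both were lower with TRAF6i-HDL, with calls that did not hold in every refit. Their windows, shown for that reason, lie on the plus strand of GRCm38.p6 (RefSeq) at chr5:90903778-90903836 for Cxcl2 and chr17:35821549-35821607 for Ier3, with the match in capitals.
Cxcl2: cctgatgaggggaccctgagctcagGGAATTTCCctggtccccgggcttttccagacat
Ier3: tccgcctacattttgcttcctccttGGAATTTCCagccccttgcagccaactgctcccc

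Monocyte recruitment and adhesion genes had a median of -0.23 over 26 tested, with 19.2% called beside 2.92% of all genes. They were higher in 1 case and lower in 4. Beside Ccl9, these included Itgam, the CD11b chain of the integrin that monocytes use to adhere, which read 123, 160.0 and 244 CPM with TRAF6i-HDL, 196, 273 and 441 CPM with mTORi-HDL and 119.7, 161 and 279 CPM in PBS. In 8 TRAF6i-HDL libraries Itgam was below all mTORi-HDL libraries (-0.74 ± 0.15, adjusted p = 0.00224), and mTORi-HDL was above the pooled PBS libraries (0.71 ± 0.15, adjusted p = 0.00718). PBS replicates 1 to 6 read 120 to 198 CPM and replicates 7 to 10 read 177 to 279 CPM, so the second set lay nearer to mTORi-HDL. Itgam gave -1.03 ± 0.18 against mTORi-HDL replicates 1 to 4 (adjusted p = 0.00106) and -0.52 ± 0.16 against replicates 5 to 10 (adjusted p = 0.0611). Sele, the endothelial adhesion molecule E-selectin, had 0, 13.8 and 30.4 CPM with TRAF6i-HDL, 18.03, 38.2 and 49.6 CPM with mTORi-HDL and 5.84, 10.7 and 32.0 CPM in PBS (-1.18 ± 0.26 for TRAF6i-HDL over mTORi-HDL, adjusted p = 0.00670). Its 0 was TRAF6i-HDL replicate 8, and mTORi-HDL was above PBS (1.38 ± 0.27, adjusted p = 0.00472). The chemokine receptor gene Ccr1 (-1.26 ± 0.35, adjusted p = 0.0363) kept its call in 12 of 20 refits. The higher member, the chemokine gene Ccl8, had 0, 4.46 and 30.8 CPM with TRAF6i-HDL and 0, 0.504 and 3.83 CPM with mTORi-HDL (3.04 ± 0.80, adjusted p = 0.0277) and lost its call without TRAF6i-HDL replicate 1 or 6 or mTORi-HDL replicate 7 or 9.

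Marker sums of 2 cell types are given beside these genes. Endothelial markers summed to 497 to 1272 CPM with TRAF6i-HDL (median 934) and to 843 to 1536 CPM with mTORi-HDL (median 1220), beside 867 CPM in the median PBS library. Of 17 tested, 15 had a negative log2 fold change, 0 were called and the median was -0.27. Monocyte markers summed to 119 to 322 CPM with TRAF6i-HDL (median 233) and to 194 to 465 CPM with mTORi-HDL (median 294), a sum in which Vcan is the largest part. Of 8 tested, 5 were negative and 3 positive, with 0 called and a median of -0.40. Their part in the Sele, Itgam and Ccl9 differences was not tested.

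Immediate early genes, transcribed within minutes of a stimulus or of tissue handling, had the lowest median of the longer lists, -0.48 over 24 tested. Of these, 3 were called lower and none higher (12.5%, beside 2.92% of all genes). Egr2, a zinc finger transcription factor, had 9.68, 25.1 and 37.1 CPM with TRAF6i-HDL and 30.2, 45.1 and 60.2 CPM with mTORi-HDL (-0.85 ± 0.17, adjusted p = 0.00207), with 8 TRAF6i-HDL libraries below all others. Fos, a subunit of the transcription factor AP-1, had 21.6, 45.7 and 103 CPM with TRAF6i-HDL and 48.0, 95.2 and 149.6 CPM with mTORi-HDL (-0.99 ± 0.27, adjusted p = 0.0359). TRAF6i-HDL replicates 1 to 6 read 21.6 to 49.7 CPM and replicates 7 to 10 read 53.9 to 103 CPM, the latter inside the mTORi-HDL range. Fos lost its call in 9 refits. Ier3 (-1.08 ± 0.32, adjusted p = 0.0494) lost its call in 13, and the count of lower genes was 1 in 9 refits and 5 without TRAF6i-HDL replicate 9.

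Matrix genes were lower in 5 cases and higher in 1 of 34 tested (17.6%, beside 2.92% of all genes), with a median of -0.29. Lox, the enzyme that crosslinks collagen and elastin, had 77.3, 137 and 202 CPM with TRAF6i-HDL and 174, 242 and 392 CPM with mTORi-HDL (-0.84 ± 0.18, adjusted p = 0.00362). Thbs1, the matricellular protein thrombospondin-1, had 507, 702 and 1346 CPM with TRAF6i-HDL and 1048, 1559.6 and 4076 CPM with mTORi-HDL (-1.35 ± 0.30, adjusted p = 0.00720). In both genes 9 TRAF6i-HDL libraries lay below the whole mTORi-HDL range. Timp3, a matrix-bound inhibitor of metalloproteinases, had 373, 663 and 977 CPM with TRAF6i-HDL and 774, 1146 and 2139 CPM with mTORi-HDL (-0.92 ± 0.22, adjusted p = 0.0145). It gave -1.22 ± 0.27 against mTORi-HDL replicates 1 to 4 (adjusted p = 0.0141) and -0.68 ± 0.25 against replicates 5 to 10 (adjusted p = 0.131). Thbs1 gave -0.98 ± 0.37 against mTORi-HDL replicates 1 to 4 (adjusted p = 0.251) and -1.56 ± 0.33 against replicates 5 to 10 (adjusted p = 0.00340). The fibronectin gene Fn1 (-0.92 ± 0.25) and the fibrillin gene Fbn1 (-0.75 ± 0.20) kept their calls in 16 and 14 refits and the higher member, the gelatinase gene Mmp2 (0.52 ± 0.15), in 5. Without mTORi-HDL replicate 8 or 9 the number of lower matrix genes was 3. Fibroblast markers summed to medians of 6457 CPM with TRAF6i-HDL and 6413 CPM with mTORi-HDL, and smooth muscle markers to 972 CPM with TRAF6i-HDL and 1167 CPM with mTORi-HDL, with 1 of 11 lower (Cald1, -0.68 ± 0.18), a call that ended without mTORi-HDL replicate 7. Of these 11 smooth muscle markers 6 had a positive log2 fold change, and the median was 0.05. Against mTORi-HDL replicates 1 to 4 their median was 0.72, with 1 called higher. Against replicates 5 to 10 it was -0.25, with 1 called lower.

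Of 42 focal adhesion and cytoskeleton genes, 3 were lower and 1 was higher (9.52%, beside 2.92% of all genes), with a median of -0.12. Rhoa, the small GTPase that drives stress fibres, had 155, 228 and 258 CPM with TRAF6i-HDL and 189.9, 322 and 471 CPM with mTORi-HDL (-0.54 ± 0.12, adjusted p = 0.00851). The filamin gene Flna (-0.55 ± 0.16) and the haematopoietic GTPase gene Rac2 (0.62 ± 0.17) lost their calls in 11 and 5 refits. Among 11 nuclear long noncoding RNAs, 2 were lower, both from the imprinted Dlk1-Dio3 cluster: Rian, with 0, 5.09 and 16.9 CPM for TRAF6i-HDL and 10.7, 19.3 and 32.5 CPM for mTORi-HDL (-1.66 ± 0.37, adjusted p = 0.00697), and Meg3 (-1.21 ± 0.34, adjusted p = 0.0382), which lost its call in 10 refits. For Rian, 9 TRAF6i-HDL libraries were below all mTORi-HDL libraries.

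Interferon-stimulated and proliferation genes gave different counts against the 2 mTORi-HDL sets. None of 33 interferon-stimulated genes passed in the pooled fit, although 31 had a positive log2 fold change and the median was 0.52. Against mTORi-HDL replicates 1 to 4 the median was 0.10 with 0 called, and against replicates 5 to 10 it was 0.78 with 6 called, all higher (Irf7, Bst2, Ifi44, Oasl2, Mx1 and Rtp4). Irf7, the transcription factor that amplifies type I interferon, had 0, 6.25 and 39.6 CPM with TRAF6i-HDL, 2.33, 6.08 and 8.52 CPM in mTORi-HDL replicates 1 to 4 and 0.926, 2.52 and 4.13 CPM in replicates 5 to 10. The 2 mTORi-HDL sets differed in Rtp4 (adjusted p = 0.0296).

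Proliferation genes ran the other way between the sets. None of 27 passed in the pooled fit (median 0.33). Against mTORi-HDL replicates 1 to 4 the median was 1.17 with 7 called, all higher (Top2a, Mki67, Stmn1, Bub1, Prc1, Kif11 and Kif23), and against replicates 5 to 10 it was 0.11 with 0 called. Mki67, the marker of cycling cells Ki-67, had 74.3, 125 and 159 CPM with TRAF6i-HDL, 25.5, 32.6 and 46.4 CPM in mTORi-HDL replicates 1 to 4 and 79.5, 90.6 and 129 CPM in replicates 5 to 10. Every TRAF6i-HDL library was above all 4 of the first set, and the ranges overlapped with the second. Replicates 1 to 4 differed from replicates 5 to 10 by -1.49 ± 0.29 for Mki67 (adjusted p = 0.00613), and Bub1, Prc1, Kif11 and Kif23 also differed between the sets.

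**Figure D5:**
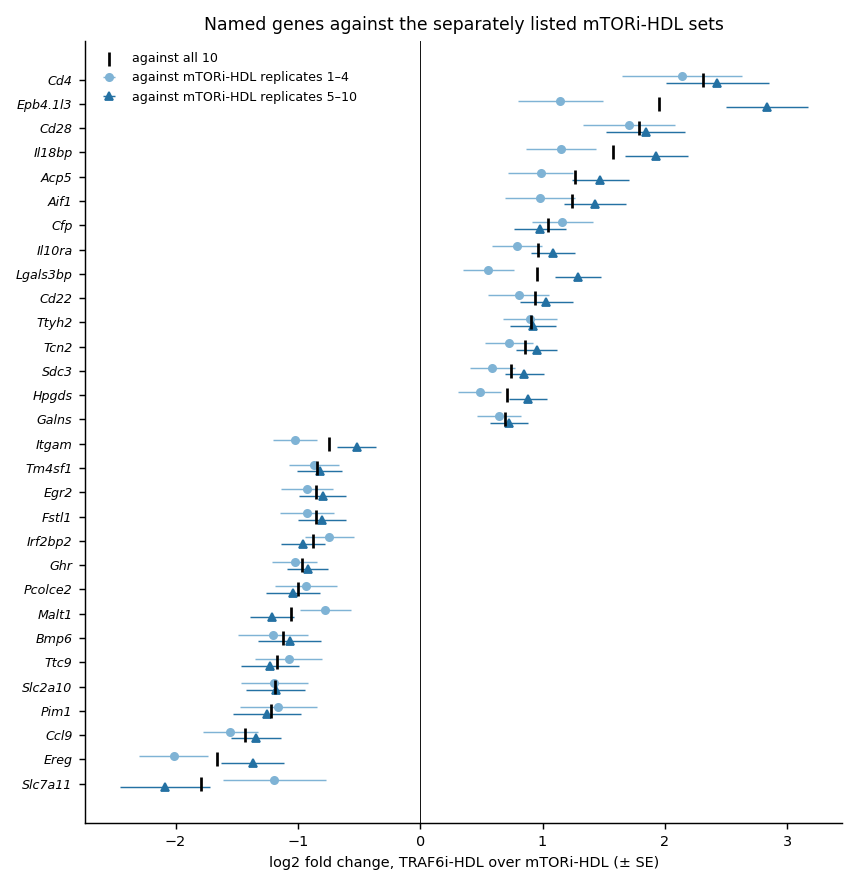
Log2 fold change with its standard error of 30 named genes for TRAF6i-HDL over mTORi-HDL replicates 1 to 4 and over replicates 5 to 10, with a bar for TRAF6i-HDL over all 10. Ccl9 lies at -1.55 and -1.34, and Epb4.1l3 at 1.15 and 2.84.

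Other lists held few calls or none. MHC class II genes had 0 of 13 called (median 0.39), mitochondrial ribosomal proteins 0 of 71 (0.07) and oxidative phosphorylation genes 1 higher (Ndufa1) and 1 lower (Cox7a2l) of 76, with 66 positive and a median of 0.20. Ndufa1 (0.78 ± 0.20) lost its call without TRAF6i-HDL replicate 8 and Cox7a2l (-0.54 ± 0.15) in 10 refits. Epb4.1l3, a band 4.1 protein that ties membranes to the cytoskeleton and belongs to no list, was among the most significant higher genes, with 29.0, 51.8 and 88.8 CPM for TRAF6i-HDL, 20.4 to 29.8 CPM in mTORi-HDL replicates 1 to 4 and 3.03 to 13.4 CPM in replicates 5 to 10 (1.95 ± 0.33, adjusted p = 0.000522). The 2 mTORi-HDL sets differed for it as well (adjusted p = 0.0296). Tcn2, the vitamin B12 carrier transcobalamin, had 58.1, 67.1 and 108 CPM with TRAF6i-HDL and 23.8, 42.1 and 57.5 CPM with mTORi-HDL, with no overlap (0.86 ± 0.14, adjusted p = 0.000215). Cd22, a sialic acid-binding receptor of B cells, had 9.68, 49.7 and 88.8 CPM with TRAF6i-HDL and 17.5, 29.6 and 36.7 CPM with mTORi-HDL (0.94 ± 0.18, adjusted p = 0.00170).

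Markers of further cell types that a plaque section could hold were low or absent. Mast cell genes Cma1, Mcpt4, Tpsb2 and Tpsab1, fat cell genes Adipoq, Plin1 and Lep, the neutrophil gene Elane and 6 haemoglobin genes had no count in any of the 20 libraries. Of the other red cell markers, Alas2 was counted in 8 TRAF6i-HDL and 10 mTORi-HDL libraries and Slc4a1 in 7 of each arm. The remaining fat cell markers were detected, and the list summed to a median of 71.5 CPM with TRAF6i-HDL and 44.6 CPM with mTORi-HDL, with all 3 tested positive and none called. Neutrophil markers summed to medians of 94.7 CPM with TRAF6i-HDL and 108 CPM with mTORi-HDL, dendritic cell markers to 87.6 CPM with TRAF6i-HDL and 83.2 CPM with mTORi-HDL, and B and plasma cell markers to 133 CPM with TRAF6i-HDL and 116 CPM with mTORi-HDL.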

How the data were processed

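The authors deposited a table of whole-number read counts per gene symbol for each library, with 24062 symbols and 5 closing lines for reads not assigned to a gene, which were left out of library sizes and tests and held on average 51.4% (no feature) and 16.7% (several alignments) of the total with TRAF6i-HDL and 49.4% and 17.1% with mTORi-HDL. RNA was amplified with the Ovation Pico WTA kit, per the labels' protocols. TopHat2 2.1.0, Bowtie2 2.2.8 and HTSeq 0.6.1 are named per the submitters' processing notes, without their order or settings. Those notes name the human build hg19, which cannot be the build behind mouse symbols, and the mouse build is not given in the sources used here.

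From the counts, edgeR 4.0.16 (R 4.3.3) fitted a quasi-likelihood model with group as the only term to all 39 libraries, after filterByExpr over the 4 groups and TMM scaling. Genes with a Benjamini-Hochberg adjusted p under 0.05 over the 10411 tested were called. The standard error is the absolute log2 fold change divided by the square root of F. A second fit split mTORi-HDL into replicates 1 to 4 and 5 to 10. Library measures were compared by two-sided permutation tests with 100000 resamples (scipy 1.17.1). The scripts were tested on simulated counts. Among 90 pairs of libraries of the same arm none agreed within sampling noise (lowest chi-square per degree of freedom 2.69). Alternatives used DESeq2 1.42.0 and limma 3.58.1.

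The members and gene lists were chosen with earlier results of these data known. Genes were named by a rule that took, per direction, the top 15 by p among genes averaging 3 or more in log2 CPM, then up to 3 called members per list, again by p, and Traf6, Cd40, Mtor, Rps6kb1, Cd68, Apoe, Rn45s and Stab1. Further members of a list, the genes whose ranges did not overlap and those under the closing observations were chosen after their values were seen. Lists are described by counts and medians without a set test. Counting error alone gives TRAF6i-HDL replicate 7 a coarse scale, at 9.68 CPM a read.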

Additional observations from a re-analysis of the deposited data

Results flagged for a closer look

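In 30 of the 166 groups of library values examined, 1 library stood apart from the rest of its arm by Dixon's criterion, which chance alone meets in about 1 group in 20. Most of them belong to TRAF6i-HDL replicate 7, with 66602 counts, and replicate 8, with 430805. Values here are log2 CPM with a prior count of 2, a scale on which a gene with no read stands at -0.34.

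TRAF6i-HDL replicate 7 stood below its arm for Cd28 and Malt1, both at -0.34, for Slc2a10 and Vegfa, also at -0.34, and for Cd4 and Cfp at 4.33. It was also low for Aif1, Cd22, Egr2 and Fcgr4, each at 3.39, for Rac2 at 4.33, for C1qc and Cd68 at 8.67 and for C1qb at 9.16. It stood above its arm for Pcolce2 at 5.62 and Fscn1 at 4.90. For genes higher with TRAF6i-HDL, such as Cd28, Cd4 and C1qc, this library therefore lay toward the mTORi-HDL level, and for Malt1, Egr2 and Vegfa it lay away from it. Without this library alone, 168 genes were called higher and 141 lower, and 285 of the 304 remained called.

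TRAF6i-HDL replicate 8 stood below its arm for Stab2 and Sele, both at -0.34, for Fstl1 at 7.41, for Traf6 at 2.89 and for Rn45s at 14.6, and above it for Ndufa1 at 6.20. Ndufa1 lost its call without this library (0.59, adjusted p = 0.0593). TRAF6i-HDL replicate 1 was low for Slc7a11, at 1.53.

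Among mTORi-HDL libraries, replicate 5 was low for Bmp6 at 4.51 and high for Rps6kb1 at 6.62, replicate 1 was low for Mitf at 5.54, replicate 9 for Sele at 4.23, and replicate 8 for Rhoa at 7.58 and Traf6 at 4.40. Bmp6, Mitf, Sele and Rhoa kept their calls without these libraries. Replicate 7 had the lowest share of reads with several alignments, at 11.7%.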

How the results depend on the processing

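Against 162 higher and 142 lower genes, DESeq2's Wald test called 285 higher and 162 lower, limma-voom with quality weights 310 and 296, a threshold of 0.2 on the adjusted p gave 544 higher and 551 lower genes, calls of at least 1 on the log2 scale numbered 62 and 41, and mTORi-HDL replicates 1 to 4 alone gave 47 and 65. DESeq2's size factors gave 188 and 102, with a median over all genes of 0.03. Leaving out 1 library gave 110 (without TRAF6i-HDL replicate 5) to 207 (without mTORi-HDL replicate 2) higher genes and 91 (without mTORi-HDL replicate 7) to 188 (without TRAF6i-HDL replicate 9) lower genes, with 94 lower genes without TRAF6i-HDL replicate 4 and 94 without replicate 6. The cause was not tested. Of 71 named and called genes, 52 kept their call in all 20 of these refits and 22 in those and all 13 other alternatives; 31 kept it against mTORi-HDL replicates 1 to 4 alone and 56 against replicates 5 to 10 alone. Only Mtor, which was not called, changed sign, to 0.028 when detected genes per library entered as a covariate and to 0.091 against mTORi-HDL replicates 1 to 4. The difference in the share of reads with several alignments, -0.457 percentage points, became 0.0608 without libraries under 200000 counts. The labels number the libraries in each arm without saying that a number is shared. Correlations between same-numbered libraries, each taken as its deviation from its arm, ran from -0.208 to 0.135 (median 0.037). In 2 of 10 pairs the correlation was over 0.1, and same-numbered libraries were not taken as pairs. With the replicate block, 142 genes were higher and 122 lower, 246 of them among the 304. Depth limits genes of a few reads, such as Cd40, Stab2 and Zap70.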

Other observations

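Several called genes of macrophages stood outside the lists and were picked after their values were seen. Tlr7, the endosomal receptor for single-stranded RNA, had 46.9, 78.7 and 138 CPM in the lowest, median and highest TRAF6i-HDL library and 33.4, 45.2 and 89.5 CPM in mTORi-HDL (0.80 ± 0.19, adjusted p = 0.00893). The Toll-like protein gene Cd180 had 156, 205 and 268 CPM with TRAF6i-HDL and 94.3, 143 and 199 CPM with mTORi-HDL (0.60 ± 0.15, adjusted p = 0.0204), and Ly86, which encodes its partner MD-1, had 48.4, 91.7 and 134 CPM with TRAF6i-HDL and 26.9, 44.6 and 104 CPM with mTORi-HDL (0.89 ± 0.18, adjusted p = 0.00246). The ranges of the 2 arms overlapped in all 3 genes. Siglec1, a sialic acid-binding receptor of tissue macrophages, had 0, 22.4 and 43.1 CPM with TRAF6i-HDL and 2.16, 9.13 and 14.6 CPM with mTORi-HDL (1.57 ± 0.34, adjusted p = 0.00620). Aoah, the enzyme that deacylates lipopolysaccharide, had 17.6, 46.8 and 70.5 CPM with TRAF6i-HDL and 15.4, 17.8 and 48.1 CPM with mTORi-HDL (1.09 ± 0.22, adjusted p = 0.00196). These 5 calls held in all 20 refits that left out a library, and none of them passed against mTORi-HDL replicates 1 to 4 alone.

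On the lower side stood Clec4e, the C-type lectin receptor Mincle, with 4.21, 8.13 and 19.4 CPM for TRAF6i-HDL and 2.98, 22.9 and 48.4 CPM for mTORi-HDL (-1.53 ± 0.33, adjusted p = 0.00455). Ccl22, a chemokine for CCR4 on T cells, had 0, 3.44 and 9.68 CPM with TRAF6i-HDL and 2.98, 8.80 and 64.6 CPM with mTORi-HDL (-2.26 ± 0.54, adjusted p = 0.0133), and its call ended with the replicate block and with limma-voom. A pair of secreted matrix-associated genes went against the direction of most matrix genes. Sfrp2, a Wnt-binding protein, had 21.0, 45.5 and 87.1 CPM with TRAF6i-HDL and 5.35, 12.6 and 24.97 CPM with mTORi-HDL (1.54 ± 0.33, adjusted p = 0.00528), and Ogn, the small proteoglycan osteoglycin, had 14.7, 24.2 and 46.3 CPM with TRAF6i-HDL and 1.30, 9.28 and 17.5 CPM with mTORi-HDL (1.54 ± 0.32, adjusted p = 0.00382). Ogn was in 8 and Sfrp2 in 7 TRAF6i-HDL libraries above every mTORi-HDL library.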
